A study of Homo sapiens with 4 samples.

Results

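Heat shock factor 1 (HSF1) and 9 chaperone genes, HSPA1A, HSPA1B, HSPA8, HSP90AA1, HSP90AB1, HSPH1, HSPB1, DNAJB1 and HSPD1, were followed in a keratinocyte line after knockdown of the RNA demethylase ALKBH5. Their rows were found by gene symbol, and each of the 10 symbols matched 1 row among the 58735 genes listed. HaCAT, an immortalised human epidermal keratinocyte line labelled WT in the control arm, received 200 pmol of a control siRNA (siControl) or of siRNA against ALKBH5 (siALKBH5) with lipofectamine, and poly-A RNA was sequenced from 2 libraries per group. All 4 libraries therefore came from transfected cells of 1 line. The siRNA sequences are not given in the labels, and the sources used here do not state whether the 2 libraries of a group came from separate cultures, so the p-values measure only the spread between these libraries.

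Chaperones bind unfolded or partly folded proteins and help them fold, refold or reach degradation. HSF1 is the transcription factor that, freed by protein stress, trimerises and binds heat shock elements, repeats of the bases NGAAN in alternating orientation, upstream of chaperone genes. HSP70 proteins (HSPA1A, HSPA1B, HSPA8) bind short hydrophobic stretches under the control of ATP, J-domain proteins such as DNAJB1 deliver clients to them, and nucleotide exchange factors such as HSPH1 release them. HSP90 proteins (HSP90AA1, HSP90AB1) take over clients at a later stage, many of them kinases and steroid receptors. HSPB1 is a small heat shock protein that holds unfolded clients without ATP and is abundant in epidermis. Several of these genes come as pairs of a form that stress induces strongly (HSPA1A, HSPA1B, HSP90AA1) and a form made constantly (HSPA8, HSP90AB1). HSPD1 is a chaperonin of the mitochondrial matrix, not of the cytosol.

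Sequencing depth was similar, at 16017502 and 17877181 counts for the siControl pair and 18837807 and 16618169 for the siALKBH5 pair. ALKBH5 itself, the target of the siRNA, had 93.7 and 87.5 CPM (counts scaled to library size) in siControl and 51.1 and 49.5 in siALKBH5, a log2 fold change of -0.85 ± 0.053 (SE; edgeR's quasi-likelihood test with Benjamini-Hochberg adjustment, adjusted p = 6.4e-15). CPM here and below is scaled with TMM factors, and a fold change is siALKBH5 against siControl. All 7 keratinocyte markers checked had at least 4197 counts in every library. Their summed level was 17417 and 16996 CPM in siControl and 23122 and 23209 CPM in siALKBH5, a sum carried mainly by KRT5 and KRT14. Of the 7, 5 were higher and 2, KRT17 and TP63, were lower, and the part of these shifts in the differences below was not tested. Summed markers of fibroblasts (18.7 to 22.8 CPM), melanocytes (2.72 to 3.88), leukocytes (2.42 to 4.22) and endothelium (32.5 to 35.4) were low in every library. Single markers within these sums still shifted. Among the endothelial markers VWF was higher (log2 fold change 0.51) and CDH5 lower (-0.69). The leukocyte marker CD14 was higher (0.64), and the fibroblast markers DCN (-1.25) and LUM (-1.08) were lower. COL1A1, which made up most of the fibroblast sum, did not pass (-0.04). In such bulk RNA, fewer cells of a type and less RNA per cell cannot be told apart.

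After ALKBH5 knockdown the chaperone mRNAs moved in both directions. HSP90AB1, HSPD1, HSPA8, HSPH1 and HSPB1 were higher, led by HSP90AB1, which rose by 53.2%. HSPA1A, HSPA1B and DNAJB1 were lower, with the largest decrease in HSPA1A, which fell by 23.4%. HSF1 and HSP90AA1 did not pass the test. At a threshold of 0.05 on the adjusted p, 5 of the 10 genes were thus higher, beside 19.3% of all 15075 genes tested, and 3 were lower, beside 17.3%. By mean CPM the 10 genes ranked between 43 (HSPB1) and 2543 (HSPH1), and small changes pass more easily at high counts. The share among genes of like level was not computed, so these counts do not set the 10 genes apart. None of the 10 reached a log2 fold change of 1 in either direction together with that adjusted p, a limit that 2.92% of all genes passed. The siControl and siALKBH5 libraries did not overlap in CPM for 9 of the 10 genes, which was also the case for 66.3% of all genes tested. The median log2 fold change of the 10 genes was 0.11, beside -0.0081 over all genes tested.

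**Figure D1:**
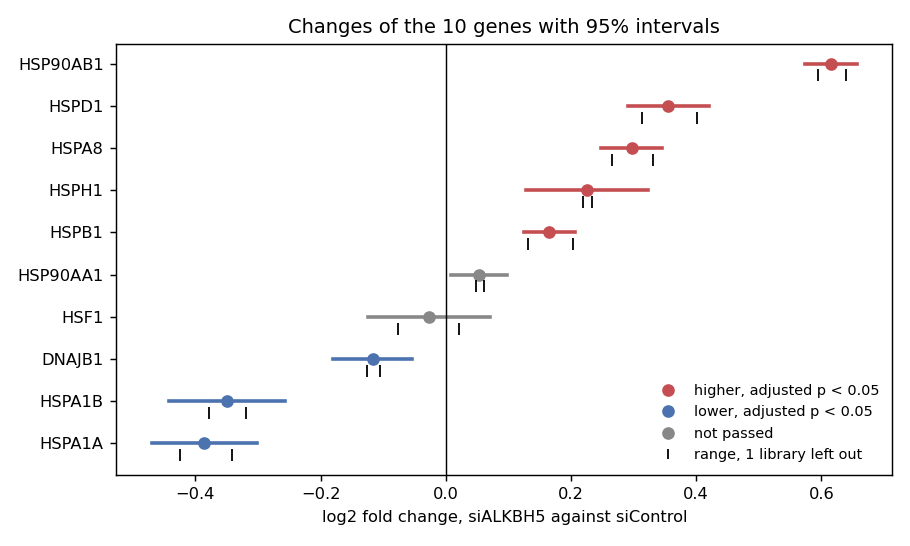
Log2 fold change (siALKBH5 against siControl, x axis) of the 10 genes with 95% intervals from edgeR, coloured by the call at an adjusted p under 0.05. The black ticks span the values with 1 library left out. The points run from -0.39 for HSPA1A to 0.62 for HSP90AB1, and the ticks lie on both sides of 0 only for HSF1.

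HSF1 (ENSG00000185122, chromosome 8), the transcription factor of the set, did not differ between groups beyond the spread of the libraries. It had 82.5 and 81.3 CPM in siControl and 83.0 and 77.5 CPM in siALKBH5. The highest and the lowest value were both found in siALKBH5, so the groups overlapped. The log2 fold change was -0.03 ± 0.048 (SE, adjusted p = 0.71), with a 95% interval of -0.12 to 0.07. The activity of the HSF1 protein was not measured.

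The inducible HSP70 genes HSPA1A and HSPA1B fell together. HSPA1A (ENSG00000204389, hg38 chr6:31815464-31817946, plus strand) had 133 and 131 CPM in siControl and 98.2 and 104 CPM in siALKBH5. Both knockdown libraries lay below both control libraries, and the means were 132 ± 1.55 and 101 ± 4.10 CPM (SD, n = 2). The log2 fold change was -0.39 ± 0.041 (SE, adjusted p = 2.8e-09). HSPA1B (ENSG00000204388, chr6:31827735-31830255, plus strand), the neighbouring gene that encodes an almost identical protein, had 98.5 and 94.8 CPM in siControl and 75.9 and 75.8 CPM in siALKBH5. Again no knockdown library reached a control library, and the log2 fold change was -0.35 ± 0.046 (SE, adjusted p = 1.6e-07).

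Counts of this pair can be exchanged, since 67.3% of the 100-base stretches in HSPA1A transcripts and 72.7% of those in the HSPA1B transcript (GENCODE 29) also occur in another gene, either the other of the pair or AL671762.1, a transcript that overlaps HSPA1B and had 0 counts in every library. How reads with more than 1 match were counted is not given in the sources used here. The ratio of HSPA1A to HSPA1B per kilobase of listed gene length was 1.37 and 1.40 in siControl and 1.31 and 1.39 in siALKBH5, and the groups overlapped. With HSPA1A, HSPA1B and their testis-rich relative HSPA1L summed as 1 gene, the log2 fold change was -0.36 ± 0.033 (SE, adjusted p = 7.2e-11), so the decrease does not depend on how reads were split within the family. HSPA1L alone was close to silent, with 3.04 and 2.77 CPM in siControl and 3.74 and 3.58 CPM in siALKBH5 (adjusted p = 0.27). HSPA6, the HSP70 gene known to be silent without strong stress, had 0 counts in every library, which allows at most 0.187 CPM in the shallowest library when 3 counts are taken as the limit. It was named after its values were seen.

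HSPA8 (ENSG00000109971, chr11:123057489-123063230, minus strand), the constitutive HSP70, moved the other way. Its level was 509 and 487 CPM in siControl and 609 and 614 CPM in siALKBH5. All knockdown values exceeded all control values, with means of 498 ± 15.1 and 611.5 ± 2.98 CPM (SD, n = 2) and a log2 fold change of 0.30 ± 0.024 (SE, adjusted p = 4.4e-12). Per kilobase, the ratio of HSPA8 to HSPA1A plus HSPA1B was 1.13 and 1.11 in siControl and 1.80 and 1.76 in siALKBH5. Since HSPA8 shares no 100-base stretch with another gene and the inducible pair shares most of them, the counted level of the pair depends on how shared reads were treated, and the ratio serves to compare libraries, not to set the level of the pair against that of HSPA8.

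HSP90AB1 (ENSG00000096384, chr6:44246166-44253888, plus strand), the constitutive cytosolic HSP90, showed the largest increase of the 10 genes. It had 783 and 799.6 CPM in siControl and 1194 and 1231 CPM in siALKBH5. The gap between the groups was far wider than that within either, with means of 791 ± 11.6 and 1213 ± 26.4 CPM (SD, n = 2), and the log2 fold change was 0.62 ± 0.021 (SE, adjusted p = 3.2e-22). By size of increase the gene ranked 995 among all 15075 genes tested. HSP90AA1 (ENSG00000080824, chr14:102080738-102139699, minus strand), the inducible HSP90, had 637 and 645 CPM in siControl and 663 and 667 CPM in siALKBH5. Its groups did not overlap, but the difference was small and did not pass, with a log2 fold change of 0.05 ± 0.022 (SE, adjusted p = 0.054) and a 95% interval of 0.01 to 0.10. The adjusted p ran from 0.0088 to 0.27 over 8 other settings and lay above 0.05 with any library left out. The ratio of HSP90AB1 to HSP90AA1 per kilobase was 2.17 and 2.18 in siControl and 3.17 and 3.25 in siALKBH5. This ratio serves to compare libraries, since its size rests on the listed lengths of both genes.

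**Figure D2:**
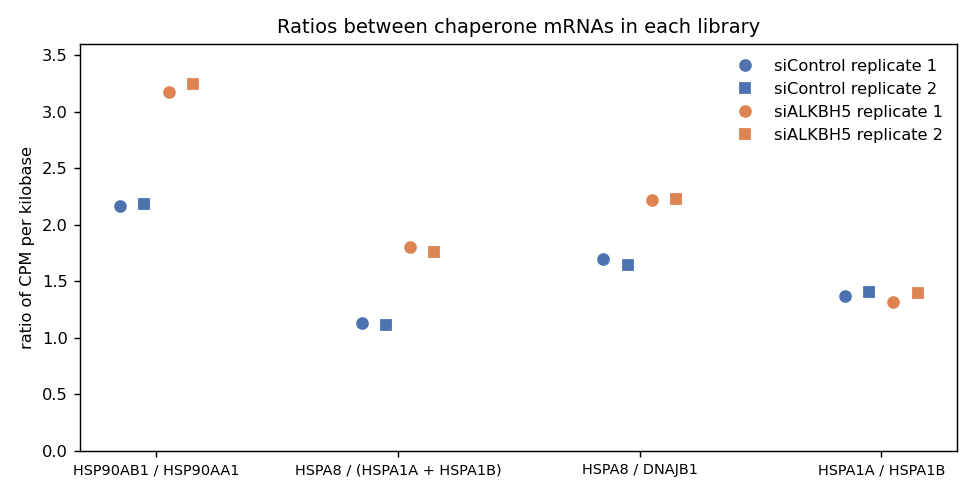
Ratios of CPM per kilobase of listed gene length between chaperone mRNAs (y axis, from 0), 1 point per library. The ratios of HSP90AB1 to HSP90AA1, of HSPA8 to HSPA1A plus HSPA1B and of HSPA8 to DNAJB1 lie higher in both siALKBH5 libraries, while that of HSPA1A to HSPA1B overlaps between groups.

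The partners of HSP70 also split. DNAJB1 (ENSG00000132002, chr19:14514770-14529770, minus strand), the stress-inducible J-domain protein that stimulates the HSP70 ATPase, had 227 and 224 CPM in siControl and 208 CPM in each siALKBH5 library. The knockdown libraries lay below the control libraries by a narrow but clear margin, with a log2 fold change of -0.12 ± 0.031 (SE, adjusted p = 0.0032). HSPH1 (ENSG00000120694, chr13:31134974-31162388, minus strand), the HSP110 that exchanges nucleotide on HSP70, had 69.9 and 70.8 CPM in siControl and 82.3 and 82.2 CPM in siALKBH5. Both libraries of each group were nearly equal, and the log2 fold change was 0.23 ± 0.048 (SE, adjusted p = 3.0e-04). Per kilobase of listed length, the ratio of HSPA8 to DNAJB1 was 1.70 and 1.65 in siControl and 2.22 and 2.23 in siALKBH5.

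HSPB1 (ENSG00000106211, chr7:76302544-76304295, plus strand) was the most abundant of the 10 and ranked 43 by mean CPM among all genes tested. It had 1619 and 1573 CPM in siControl and 1834 and 1745 CPM in siALKBH5. The groups did not overlap, and the log2 fold change was 0.17 ± 0.020 (SE, adjusted p = 3.5e-08), so that a small relative change was measured on a large number of counts (26123 to 34297 per library). HSPD1 (ENSG00000144381, chr2:197486581-197516737, minus strand), the mitochondrial HSP60, had 215 and 219.7 CPM in siControl and 269.9 and 287 CPM in siALKBH5. Every knockdown value exceeded every control value, and the log2 fold change was 0.36 ± 0.032 (SE, adjusted p = 5.5e-11). Its cochaperonin HSPE1, which caps the HSPD1 ring and is transcribed in the opposite direction from the same locus (chr2:197499994-197503457, plus strand), had 16.7 and 16.6 CPM in siControl and 19.9 and 17.5 CPM in siALKBH5. That difference did not pass (log2 fold change 0.17 ± 0.10, SE, adjusted p = 0.21). The listed spans of HSPD1 and HSPE1 overlap, and the sources used here do not say whether reads were counted by strand.

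**Figure D3:**
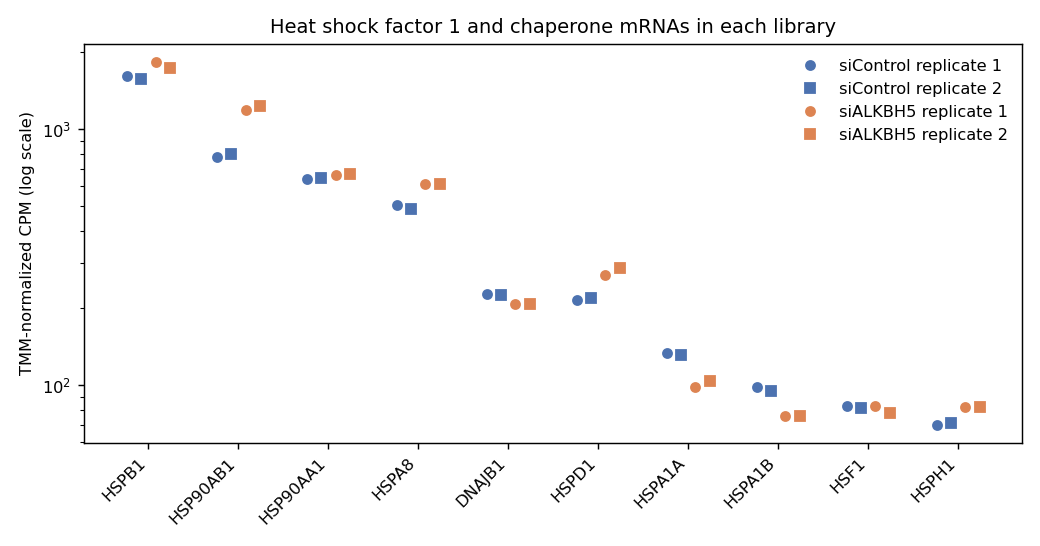
Level of each of the 10 mRNAs in each library, in TMM-normalized CPM on a log axis, with genes ordered by their siControl mean. Levels run from about 70.3 CPM (HSPH1) to 1596 CPM (HSPB1) in siControl, and the groups overlap only for HSF1.

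Levels of different genes were compared per kilobase of listed gene length. In siControl the order was HSPB1 (977 CPM per kilobase), HSP90AB1 (266), HSP90AA1 (122), HSPA8 (103), DNAJB1 (61.4), HSPA1A (53.2), HSPD1 (51.2), HSPA1B (38.4), HSF1 (15.4) and HSPH1 (8.38). The places of HSPA1A and HSPA1B rest on how reads shared by the pair were counted, which is not known here. The nearest neighbours in that order were HSPA1A and HSPD1, at 53.2 ± 0.626 and 51.2 ± 0.747 CPM per kilobase (SD, n = 2). In siALKBH5, HSPD1 at 65.6 stood above DNAJB1 at 56.7 and HSPA1A at 40.7 CPM per kilobase. HSPA8 at 126 ± 0.616 and HSP90AA1 at 127 ± 0.586 CPM per kilobase (SD, n = 2) were close there. The SD covers only the spread between libraries, while places in this order also rest on the listed lengths. Summed, the 10 genes had 4374 and 4326 CPM in siControl and 5117 and 5092 CPM in siALKBH5, and HSP90AB1 and HSPB1 made up most of that sum.

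The promoters of the 10 genes were also searched for the element that HSF1 reads. RefSeq promoter windows (GRCh38.p14, 250 bases before to 50 after each listed start) were matched by symbol for 9 of the 10 genes, all but HSF1, some of which have several starts. A pair of units was searched as GAANNTTC or TTCNNGAA and 3 units as GAANNTTCNNGAA or TTCNNGAANNTTC. Each of the 2-unit forms reads the same on the opposite strand, the 3-unit forms are each other's reverse complement, and every 3-unit match also holds overlapping 2-unit matches. At least 1 window held a 2-unit match for 8 of the 9 genes, with HSPH1 the exception, beside 16.18% of all 27305 genes in the table. A 3-unit match was present for 4 of the 9 (HSPA8, HSP90AA1, HSP90AB1 and HSPD1), beside 0.61% of all genes. Counted by window, 13.49% of the 35116 promoters held a 2-unit and 0.49% a 3-unit match. Only exact letters were counted, so a unit with a changed base was not found. Such elements are a known trait of chaperone genes, as stated above, so a share above that of all genes could be foreseen. It is no result of the knockdown. A gene with several starts, such as DNAJB1 or HSP90AB1, also had more windows in which a match could fall. These matches are a description of letters in the reference, and no binding was measured.

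The stretches below hold, of the matches upstream of a start, the nearest one and any other that lies with it inside 30 bases. They were chosen because the genes that fell and those that rose both carry such matches. Capitals mark the matched units, each stretch is written 5′ to 3′ on the strand of its gene, and coordinates are GRCh38.p14. The first 3 belong to genes that were lower after knockdown, the next 4 to genes that were higher, and the last to HSP90AA1, which did not pass.
HSPA1A, chr6:31815426-31815455, plus strand: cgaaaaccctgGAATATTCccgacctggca
HSPA1B, chr6:31827622-31827651, plus strand: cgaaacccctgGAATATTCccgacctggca
DNAJB1, chr19:14518426-14518455, minus strand: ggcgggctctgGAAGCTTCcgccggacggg
HSP90AB1, chr6:44247823-44247851, plus strand: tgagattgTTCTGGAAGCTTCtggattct
HSPA8, chr11:123062171-123062199, minus strand: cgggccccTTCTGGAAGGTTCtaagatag
HSPD1, chr2:197500062-197500090, minus strand: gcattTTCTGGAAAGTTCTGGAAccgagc
HSPB1, chr7:76302480-76302509, plus strand: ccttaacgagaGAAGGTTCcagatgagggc
HSP90AA1, chr14:102087104-102087133, minus strand: cTTCCGGAAGGTTCgggaggcTTCTGGAAa

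HSPA1A and HSPA1B hold the same 2-unit letters at almost the same distance, from base -106 and base -105 of their starts, and their 250 bases upstream are identical at 235 of 251 aligned positions (93.6%). The stretches of HSPA8, HSPD1 and HSP90AA1 overlap an annotated GENCODE 29 exon of some transcript, and the other 5 do not. The 3 genes that fell carry exact 2-unit matches without an exact 3-unit match. Of the 5 genes that rose, HSPA8, HSP90AB1 and HSPD1 carry 3 units, HSPB1 a pair and HSPH1 none. HSP90AA1, which also carries 3 units, differed from siControl by only 3.79% in mean CPM. The split holds for exact matches only. In the stretches of HSPA1A and HSPA1B, gac stands where a further unit would have GAA, and in that of HSPB1 gat does. In the stretch of DNAJB1, ctc stands where a further unit would have TTC. Each is a unit with a changed base, so the 3 genes that fell and HSPB1 all come close to 3 units. How often such near matches occur in other promoters was not counted. With 9 genes, no test of this split was made.

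**Figure D4:**
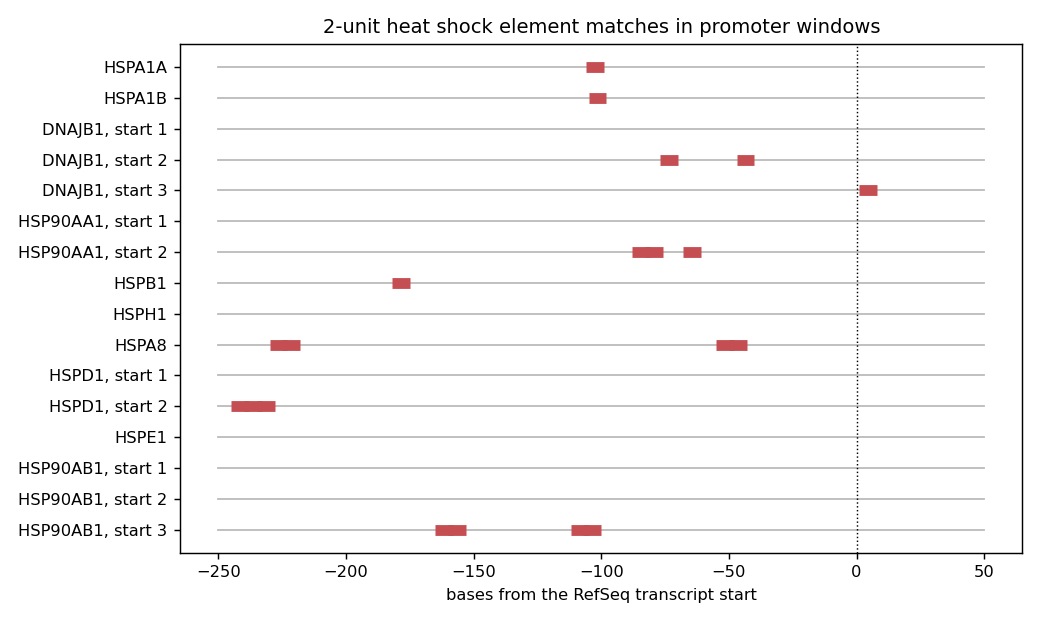
Positions of 2-unit heat shock element matches (red) in RefSeq promoter windows, in bases from each listed transcript start (dotted line); the grey line is the window searched. Windows of HSPH1 and HSPE1 hold no match, and overlapping red blocks in HSPA8, HSP90AA1, HSP90AB1 and HSPD1 form the 3-unit matches.

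The other genes of the chaperone network were read from lists of known classes. Of 86 further genes, 85 had a symbol listed once and 74 passed the filter on low counts. HSPA14 was left out of these counts because its symbol is listed more than once. Among the 74, 21 passed as higher and 19 as lower, 34 did not pass, and the median log2 fold change was 0.02. These shares, and 1 gene past a log2 fold change of 1, are to be read beside the 19.3%, 17.3% and 2.92% of all genes given above. With DESeq2, 12 in place of 19 were lower. The counts of single classes given next are small, stand beside the same shares of all genes, and set no class apart from the rest.

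Of the other heat shock factors and the HSF1-binding protein HSBP1, 3 were tested and 1 was lower. HSF4, best known for its role in the lens, had 6.44 and 6.22 CPM in siControl and 4.33 and 3.94 CPM in siALKBH5 (log2 fold change -0.61 ± 0.18, SE, adjusted p = 0.0069), a change on no more than 112 counts per library. HSF2 stood at 14.1 and 14.3 CPM in the group means and HSBP1 at 113 and 109 CPM, and neither passed. Among the HSP70 and HSP110 genes outside the 10, 2 of 5 tested were higher and the other 3 did not pass. Both rows of HSPA14, which are outside these counts, had log2 fold changes of -0.03 and did not pass. HSPA4, an HSP110 that acts on HSP70 like HSPH1, rose from 117 to 127 CPM (log2 fold change 0.12 ± 0.043, SE, adjusted p = 0.025). HSPA12A, a distant HSP70 relative, rose from 22.0 to 27.6 CPM (log2 fold change 0.32 ± 0.086, SE, adjusted p = 0.0034).

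The cytosolic J-domain proteins other than DNAJB1 included 5 lower and 2 higher of 16 tested. DNAJA1, the abundant farnesylated partner of HSPA8, had 69.8 and 68.0 CPM in siControl and 49.1 and 48.4 CPM in siALKBH5 (log2 fold change -0.50 ± 0.055, SE, adjusted p = 6.6e-09), a larger decrease than that of DNAJB1. DNAJB4, a close relative of DNAJB1, fell from 13.4 to 9.68 CPM (log2 fold change -0.47, adjusted p = 0.0027), and DNAJB2, a partner in the sorting of ubiquitinated clients, fell from 112 to 98.7 CPM (log2 fold change -0.18, adjusted p = 7.8e-04). DNAJC9, a histone chaperone with a J domain, rose from 18.8 to 22.5 CPM (log2 fold change 0.26, adjusted p = 0.026). DNAJC5, which acts at secretory vesicles, rose from 166 to 186 CPM (log2 fold change 0.16, adjusted p = 4.4e-04).

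The exchange factors and partners of HSP70 included 2 higher and 4 lower of 8 tested. BAG3, which links HSP70 and small heat shock proteins to autophagy and is itself a target of HSF1, had 121 and 126 CPM in siControl and 174 and 179 CPM in siALKBH5 (log2 fold change 0.51 ± 0.037, SE, adjusted p = 3.6e-13). BAG1, a relative that links HSP70 to the proteasome, had 154.8 and 149.8 CPM in siControl and 112 and 111 CPM in siALKBH5 (log2 fold change -0.45 ± 0.038, SE, adjusted p = 1.9e-11). The ranges of the groups were far apart for both, in opposite directions. BAG2 rose from 3.89 to 5.46 CPM (log2 fold change 0.49, adjusted p = 0.040), while BAG4 fell from 30.3 to 23.9 CPM (log2 fold change -0.34, adjusted p = 0.0010) and BAG5 from 68.1 to 55.8 CPM (log2 fold change -0.28, adjusted p = 8.6e-05).

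Of 13 cochaperones of HSP90 tested, 3 were higher and 5 lower. PPP5C, a phosphatase bound to HSP90, rose from 44.8 to 55.8 CPM (log2 fold change 0.32 ± 0.062, SE, adjusted p = 1.1e-04). PTGES3, the cochaperone p23, rose from 191 to 221 CPM (log2 fold change 0.21, adjusted p = 6.0e-06), and STIP1, the adaptor HOP that joins HSP70 to HSP90, rose from 157 to 175 CPM (log2 fold change 0.15, adjusted p = 0.0011). CDC37L1 fell from 10.8 to 8.24 CPM (log2 fold change -0.39, adjusted p = 0.024), CHORDC1 from 32.8 to 26.7 CPM (log2 fold change -0.29, adjusted p = 0.0041) and SUGT1 from 63.6 to 54.8 CPM (log2 fold change -0.22, adjusted p = 0.0024).

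Of 9 small heat shock protein genes other than HSPB1, 3 passed the filter on low counts and were tested. HSPB3, a muscle form, was counted 27 and 45 times in the siControl libraries and 15 times in each siALKBH5 library (log2 fold change -1.29 ± 0.37, SE, adjusted p = 0.0061), and it was the gene of the network past a log2 fold change of 1. HSPB11, now known chiefly as a part of the ciliary transport complex, fell from 25.8 to 20.2 CPM (log2 fold change -0.36, adjusted p = 0.0021). HSPB8, the partner of BAG3, was counted 25 and 19 times in the siControl libraries, and 42 and 38 times after knockdown, and did not pass (log2 fold change 0.81 ± 0.33, SE, adjusted p = 0.051). It was named after its values were seen.

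Among the mitochondrial chaperones other than HSPD1, 3 of 7 were higher and 1 lower. TRAP1, the mitochondrial HSP90, had 44.6 and 43.7 CPM in siControl and 79.9 and 80.8 CPM in siALKBH5. Its log2 fold change of 0.86 ± 0.054 (SE, adjusted p = 8.4e-15) exceeded those of all 10 genes, and both groups were tight. CLPB, a disaggregase, rose from 19.5 to 28.4 CPM (log2 fold change 0.54, adjusted p = 5.3e-06), and HSPA9, the mitochondrial HSP70, rose from 176 to 196 CPM (log2 fold change 0.16, adjusted p = 2.0e-04). GRPEL2, an exchange factor for HSPA9, fell from 16.6 to 13.4 CPM (log2 fold change -0.31, adjusted p = 0.026). In the cytosolic chaperonin CCT, which folds actin and tubulin, and in prefoldin, which feeds it, 6 of 14 were higher and 1 lower. CCT5 rose from 113 to 143 CPM (log2 fold change 0.34, adjusted p = 9.7e-08), TCP1 from 129 to 161 CPM (log2 fold change 0.32, adjusted p = 2.0e-08) and CCT4 from 139 to 165 CPM (log2 fold change 0.25, adjusted p = 1.9e-06). The prefoldin subunit PFDN5 fell from 176 to 153 CPM (log2 fold change -0.20, adjusted p = 2.1e-05).

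**Figure D5:**
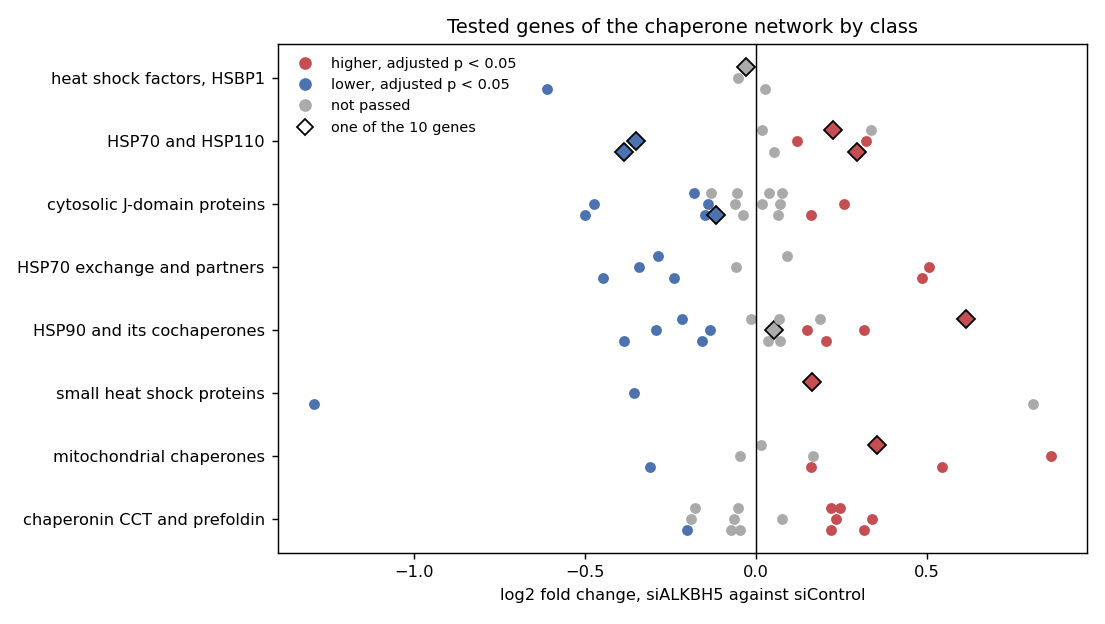
Log2 fold change (siALKBH5 against siControl, x axis) of tested genes of the chaperone network by class, with diamonds for the 10 genes and circles for the others. Colours give the call at an adjusted p under 0.05. HSPA14 and genes found only in the heat-inducible list, such as SERPINH1, are not drawn. Vertical offsets within a class only separate the points. Each class except the heat shock factors holds at least 1 higher gene, and the values span -1.29 (HSPB3) to 0.86 (TRAP1).

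A list of 18 further heat-inducible genes, which shares some entries with the classes above, gave 5 higher and 4 lower of 16 tested, with a median log2 fold change of 0.06. SERPINH1, the collagen chaperone of the endoplasmic reticulum, had 225 and 231 CPM in siControl and 253 and 255 CPM in siALKBH5 (log2 fold change 0.16 ± 0.030, SE, adjusted p = 9.9e-05). Both knockdown libraries exceeded both control libraries. Heat-inducible genes thus stood on both sides in the same libraries, with for example BAG3 and SERPINH1 higher and DNAJA1, DNAJB4 and CHORDC1 lower. Of the 10 genes, which are outside this list, HSPA1A, HSPA1B and DNAJB1 were lower, and HSP90AB1, HSPD1, HSPA8, HSPH1 and HSPB1 were higher.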

How the data were processed

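The authors deposited 2 tables of raw read counts per gene, each with 1 siControl and 1 siALKBH5 library. Submitters' processing notes name CASAVA, HISAT2 2.0.5, featureCounts 1.5.0-p3, DESeq2 1.20.0 and hg38, and the counting options are not given in the sources used here. The authors' FPKM values were not used, nor were their log2 fold changes and p-values, which compare 1 library with 1 in each deposited table. Gene lengths are the deposited ones.

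Counts were joined over all 58735 genes and tested in edgeR 4.0.16 (R 4.3.3; default expression filter, TMM factors 0.992 to 1.01, quasi-likelihood test, Benjamini-Hochberg adjustment over 15075 genes). SE is the absolute log2 fold change divided by the square root of F. Alternatives were DESeq2 1.42.0, other scalings and filters, summed gene copies, a replicate block and each library left out. Beside the 10 genes, ALKBH5 and HSPE1, genes were named by a rule: per class, up to 3 higher and 3 lower with the largest change at an adjusted p under 0.05 and a mean of at least 1 CPM. A gene that the rule names is not reported here. The 10 genes and the lists were chosen with earlier results of these data known. Promoter windows are from RefSeq (GRCh38.p14). Intervals cover the spread of these libraries, and the limit for 0 counts covers counting error only.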

Additional observations from a re-analysis of the deposited data

How the results depend on the processing

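The 5 genes that were higher and the 3 that were lower kept their call under every alternative run for them, and the counts stayed at 5 and 3 with any library left out. HSP90AA1 passed at a log2 fold change of 0.056 with DESeq2 size factors in edgeR (adjusted p = 0.044), 0.060 without a filter (0.042), 0.054 at a mean of at least 10 counts (0.049) and 0.054 with a replicate block (0.0088). HSF1 changed sign, to 0.022, without siALKBH5 replicate 2, and ranged from -0.077 to 0.022 over the libraries left out, never passing. For the 74 further chaperone genes, DESeq2 called 12 lower in place of 19, and leaving out a library gave 17 to 19 higher and 13 to 16 lower. The causes were not tested. With the replicate number as a block, 5922 of all genes passed instead of 5523. The labels give no pairing beyond the word replicate, same-numbered libraries deviated together with a correlation of only 0.049 over 15075 genes, and the block changed no other call of the 10 genes. Leaving out a library leaves 1 library in a group, which is then assumed to vary like the other group.

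Limits are the 2 libraries per group and the unknown origin of replicates. Libraries of 1 group differed by 1.71 and 1.81 times the sampling variance (chi-square per degree of freedom), so they are separate libraries with little spread, and small changes such as that of DNAJB1 passed. Groups of 2 cannot show an outlying library. Pseudogene rows held 0% to 2.14% of the counts of their parent gene, outside HSPA1A and HSPA1B.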
